A study of Mus musculus with 2 samples.

Results

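Macrophages of the intestine make growth factors and cytokines that act on neighbouring epithelial, stromal, neural and blood vessel cells. A set of 10 genes for such tissue trophic factors was described here: Igf1, Bmp2, Kitl, Tslp, Hgf, Hbegf, Areg, Inhba, Pdgfa and Pdgfb. The genes were picked by name, with earlier results of these arrays known, and each was found through the gene symbol that the platform annotation gives a probe set. Of the 10 members, 9 had a probe set, out of 19938 genes with a probe set of their own on the array. Areg, which encodes the epidermal growth factor receptor ligand amphiregulin, had none with its symbol in that annotation and was not analysed here. Each of the 9 measured members had exactly 1 probe set, so no second probe set checks any of their values.

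The series compared inflammatory with control macrophages in mouse colitis. The DSS group was 1 array of lamina propria macrophages from mice given 3% (wt/vol) dextran sulfate sodium in drinking water for 5 days, and the control group was 1 array of the same sorted cells from mice on plain drinking water for 5 days. Dextran sulfate sodium (DSS) is a sulfated sugar polymer that damages the gut epithelium and is commonly given to mice to cause colitis. The sort of both groups took cells that carried CD45, IAb, CD11b and F4/80 but lacked CD103. The labels give neither strain, age, sex nor the number of mice behind an array.

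Values are log2 signals on a microarray, and a difference is the log2 signal in DSS minus that in control, so that a difference of 1 is 2-fold. A single array per group gives neither a replicate error nor a test, and every difference compares these arrays rather than the conditions. A gene counted as measurable when its signal was at or above the median of at least 1 array, 5.62 in DSS or 5.70 in control. All 9 measured members met that rule, which 11163 genes did in all. A signal below the median cannot be told from background, because the table carries no detection calls. Over those 11163 genes the differences had a median of -0.03 and a robust SD of 0.39. The DSS minus control differences of separate probe sets of the same gene had a pooled within-gene SD of 0.28 over 641 genes. This SD holds no replicate error.

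The products fall into families with separate receptors. IGF1 signals through the IGF1 receptor and is held by binding proteins. Activin A, a dimer of the Inhba product, and BMP2 belong to the transforming growth factor beta superfamily, signal through paired serine kinase receptors and SMAD proteins, and are blocked by secreted antagonists such as follistatin (for activin) and noggin (for BMPs). HB-EGF and amphiregulin are membrane-bound until a protease, chiefly ADAM17, sheds them to act on the EGF receptor. PDGF-A and PDGF-B act on receptors of mesenchymal cells, HGF acts on MET of epithelial cells, stem cell factor (Kitl) acts on KIT of mast cells, interstitial cells of Cajal and progenitors, and TSLP acts on a receptor made of CRLF2 and the IL-7 receptor alpha chain. In mouse gut muscle, BMP2 from macrophages is known to act on enteric neurons.

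Promoter windows are shown for Inhba, the member with the only difference above 2-fold in the higher direction, and for Igf1 and Kitl, which were both far lower on the DSS array. They come from the RefSeq promoter table of build GRCm38.p6, which spans 250 bases before to 50 bases from the annotated start. Windows of 6 of the 10 members were read. The table held none for Bmp2 or Pdgfb, and member windows on a chromosome left out of the search were not read. Each is given 5′ to 3′ on the strand of the gene, and capitals mark the motif matches described next. The windows are chr13:16011601-16011900 (+) for Inhba, chr10:87860861-87861160 (+) for Igf1 and chr10:100015571-100015870 (+) for Kitl.
Inhba: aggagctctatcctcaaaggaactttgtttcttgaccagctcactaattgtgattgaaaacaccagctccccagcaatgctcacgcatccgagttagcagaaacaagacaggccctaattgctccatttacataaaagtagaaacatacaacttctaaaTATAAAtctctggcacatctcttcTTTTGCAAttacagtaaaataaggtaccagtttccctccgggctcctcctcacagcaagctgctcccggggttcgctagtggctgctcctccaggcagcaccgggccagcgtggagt
Igf1: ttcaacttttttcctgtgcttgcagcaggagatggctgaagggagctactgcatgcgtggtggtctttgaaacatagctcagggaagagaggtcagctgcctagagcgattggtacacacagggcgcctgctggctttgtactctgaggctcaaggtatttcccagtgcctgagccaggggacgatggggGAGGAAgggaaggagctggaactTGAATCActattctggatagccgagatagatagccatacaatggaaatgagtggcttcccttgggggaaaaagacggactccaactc
Kitl: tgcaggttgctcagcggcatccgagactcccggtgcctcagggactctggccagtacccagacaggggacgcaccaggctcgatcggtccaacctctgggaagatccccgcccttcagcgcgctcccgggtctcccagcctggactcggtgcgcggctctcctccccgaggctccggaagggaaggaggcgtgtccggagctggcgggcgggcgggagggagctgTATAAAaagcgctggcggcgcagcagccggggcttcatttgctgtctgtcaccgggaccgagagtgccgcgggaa

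The motifs searched on both strands were the TATA box (TATAAA), AP-1 (TGANTCA), the cyclic AMP response element (TGACGTCA), C/EBP (TTGCNNAA), PU.1 (GAGGAA) and the hypoxia element core (ACGTG). Inhba held TATAAA with its first base at position -91 from the start and a C/EBP match at -67. Igf1 held a PU.1 match at -60 and an AP-1 match at -37. Kitl held TATAAA at -25. None of these matches overlapped, and the windows of the 3 genes held no match to the other letters searched. Of 32851 promoter windows in the table, 13.6% held TATAAA, 7.81% the AP-1 letters, 1.79% those of the cyclic AMP element, 10.8% the C/EBP letters, 28.3% the PU.1 letters and 19.6% the hypoxia core. The matches are a description of letters and not of bound sites. The G and C content was 47.7% for Inhba, 52.3% for Igf1 and 68.7% for Kitl, against a median of 52.7% over all windows.

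Across the 9 measured members, Inhba was far higher on the DSS array, and Igf1, Kitl, Tslp, Bmp2 and Hbegf were lower by at least 2-fold, while Pdgfb, Pdgfa and Hgf lay within 2-fold. That is 1 member higher, 5 lower and 3 between. In the background of 11163 genes, 3.99% had a DSS signal at least 2-fold above control and 3.03% had one at least 2-fold below it, together 7.01%. Since the members were named with this contrast known, nothing is read from their share. The median difference of the 9 was -1.32, and 7 differences were negative and 2 positive. In a sorted population, fewer cells that make a factor and less RNA of it per cell cannot be told apart.

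**Figure D1:**
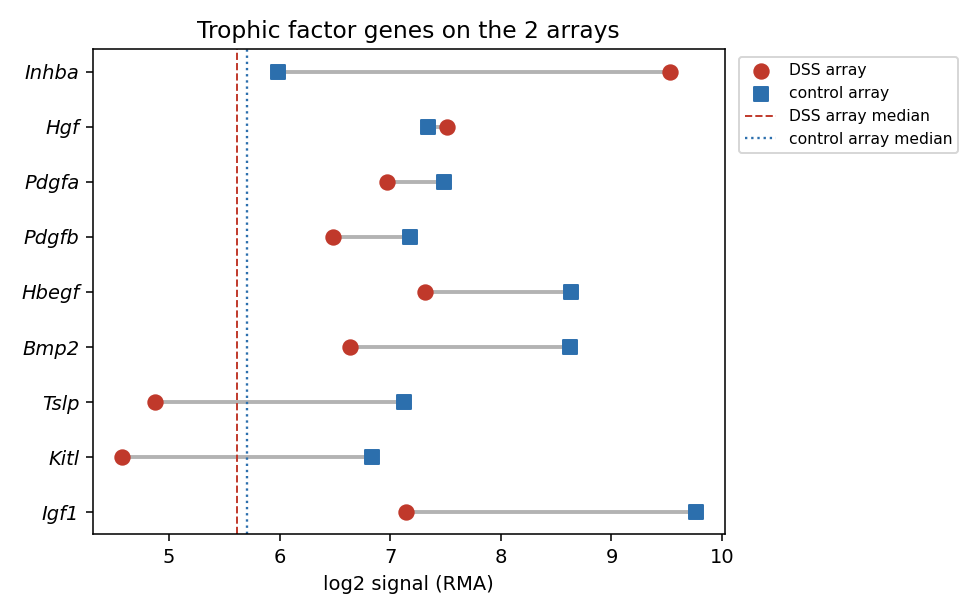
Log2 signal of each measured member on the DSS array (circles) and the control array (squares), ordered by difference, with the median of each array as a dashed or dotted line. Inhba lies to the right in DSS, at 9.53 against 5.99 in control, and the DSS points of Kitl and Tslp fall left of the DSS array median of 5.62.

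Inhba (probe set 10403743) encodes the beta A subunit of activin A and inhibin A. Its signal was 9.53 on the DSS array and 5.99 on the control array. The difference was 3.54, or 11.6-fold higher in DSS, and 36 of the 11163 genes (0.322%) had a larger one. The control signal stood only 0.29 above the control array's median, so the size of this fold starts from a dim value.

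The other ligands measured in the activin, BMP and TGF-beta family did not share this difference. Bmp2 (probe set 10476395), a bone morphogenetic protein, read 6.64 on the DSS array and 8.63 on the control array. It was 3.97-fold lower in DSS, a difference of -1.99, and 60 genes had a lower one. Bmp2 and Inhba therefore lay on opposite sides. Of 17 measured ligands in this list, 7 were past the signal rule, with 1 higher (Inhba), 1 lower (Bmp2) and 5 within 2-fold, and a median difference of -0.19. Bmp4 and Bmp5, related bone morphogenetic proteins, had differences of -0.52 and -0.86. Tgfb1, the main TGF-beta isoform of leukocytes, read 8.22 in DSS and 8.22 in control.

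Receptors and antagonists of activin and BMP had a median difference of -0.22, close to the -0.19 of the ligands. Over all genes past the rule, 7.01% were at least 2-fold apart, so nothing is read from the counts here. Of 16 receptor and antagonist genes past the signal rule, none was higher by 2-fold, 1 was lower and 15 differed by less. The lower one was Tgfbr2, the TGF-beta type II receptor, at 7.58 in DSS and 8.76 in control, or 2.26-fold. Acvr2a, a type II receptor for activin, read 9.58 in DSS and 8.95 in control, a difference of 0.63. The type I activin receptor gene Acvr1b had a difference of 0.30, and the type II BMP receptor gene Bmpr2 one of -0.05. Follistatin (Fst), which neutralises activin, read 5.70 in DSS and 5.90 in control, close to the medians of the arrays. Its relative Fstl3 read 6.25 in DSS and 6.49 in control. In the list of SMADs and BMP or activin target genes, none of the 14 genes past the rule reached 2-fold. Over all genes past the rule only 7.01% did, so nothing is read from this count. The median of the 14 genes was 0.01. Id1, a transcriptional target of BMP signalling, had the largest value among them, at a difference of 0.61, with 6.13 in DSS and a control signal of 5.52 under the array's median. Smad5, a BMP-activated SMAD, had the lowest, at -0.49.

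Igf1 (probe set 10365559) encodes insulin-like growth factor 1, a growth and survival factor. Its signal was 7.14 on the DSS array and 9.76 on the control array. The difference of -2.62, or 6.15-fold lower in DSS, was the lowest of the 9 members, and 26 of all genes past the rule (0.233%) had a lower one. Both signals were above the medians of their arrays, so this fold does not start or end in the dim range.

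In the IGF axis list most genes lay within 2-fold. Of 11 genes past the rule, 1 was higher (Igfbp6), 2 were lower (Igf1 itself and Igfbp4) and 8 lay between. The median of the 11 was -0.26. Over all genes past the rule, 3.99% were higher and 3.03% lower by at least 2-fold, so nothing is read from these counts. Igfbp4, a binding protein that restrains IGFs, was 2.90-fold lower, at 5.86 in DSS and 7.39 in control. Its DSS signal was dim, close to the DSS array's median of 5.62. Igfbp6, which prefers IGF2, was 2.20-fold higher, at 7.58 in DSS and 6.44 in control. The receptor gene Igf1r read 7.19 in DSS and 6.71 in control, a difference of 0.48. The other binding protein genes past the rule, Igfbp3, Igfbp5 and Igfbp7, had differences of -0.66, 0.13 and 0.54. Igf2, the other ligand, was under the medians of both arrays at 5.42 in DSS and 5.51 in control.

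Kitl (probe set 10366052) encodes stem cell factor. Its signal was 4.57 on the DSS array and 6.83 on the control array, a difference of -2.26, or 4.80-fold lower in DSS. Set against the DSS array's median, the DSS signal stood at -1.05, with 26.5% of probe sets dimmer, so it cannot be told from background and the fold is not exact. The receptor gene Kit lay the other way by less than 2-fold, at 6.71 in DSS and 5.75 in control, a difference of 0.96. The control signal of Kit was close to the control array's median of 5.70. Among 10 genes past the rule in the list of KIT, CSF1 and FLT3 axis genes, Csf3r was 4.51-fold higher (9.25 in DSS and 7.08 in control), Kitl was the lower one and 8 lay between. The median of the 10 was 0.40, and that of all 12 measured genes was 0.11. Csf3r, the receptor for granulocyte colony-stimulating factor, also belongs to the neutrophil marker list. Csf1r, the receptor that macrophages depend on, read 10.86 in DSS and 11.52 in control. The ligand gene Csf1 read 5.72 on each array.

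Tslp (probe set 10454601) encodes thymic stromal lymphopoietin, an epithelial and stromal cytokine that promotes type 2 responses. Its signal was 4.88 on the DSS array and 7.12 on the control array, a difference of -2.25, or 4.75-fold lower in DSS. Its DSS signal too was under the array's median, at -0.74 from it. The receptor chain gene Crlf2 read 6.93 in DSS and 7.23 in control, and the other chain, Il7r, was 2.67-fold lower, at 8.02 in DSS and 9.44 in control. Il7r is in the list of T cell and innate lymphoid markers as well. Stat5a and Stat5b, which act downstream, had differences of 0.11 and 0.38. Il33 and Il25, alarmins that act beside TSLP, were under the medians of both arrays.

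Hbegf (probe set 10458340) encodes heparin-binding EGF-like growth factor. Its signal was 7.31 on the DSS array and 8.63 on the control array, a difference of -1.32, or 2.50-fold lower in DSS, and 198 genes had a lower one. Another EGF family ligand lay the other way. Nrg1, which encodes neuregulin 1, a ligand of ERBB3 and ERBB4, was 2.39-fold higher, at 7.18 in DSS and 5.92 in control. The control signal of Nrg1 was dim, close to the control array's median of 5.70. Tgfa, a ligand of the EGF receptor, read 6.43 in DSS and 6.76 in control. Of the 10 measured EGF family ligands 4 were past the rule, and Ereg, Btc, Epgn and Egf were under both medians. Among receptors, Egfr was 3.66-fold lower, at 5.43 in DSS and 7.31 in control, with the DSS signal under the array's median. Erbb2, Erbb3 and Erbb4 were under both medians. The shedding protease genes Adam17 and Adam10 read 10.03 and 9.39 in DSS, against 9.86 and 9.06 in control, and Rhbdf2, which brings ADAM17 to the surface, had a difference of 0.23. Of the 6 genes of this receptor and shedding list past the rule, 0 were higher, 1 was lower, 5 lay between and the median was 0.06.

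Pdgfb (probe set 10430660) and Pdgfa (probe set 10535043) encode the PDGF chains. Pdgfb read 6.48 on the DSS array and 7.18 on the control array, a difference of -0.70. Pdgfa read 6.97 on the DSS array and 7.49 on the control array, a difference of -0.52. Both were lower by less than 2-fold, at 1.63-fold and 1.43-fold. For Pdgfb, 680 genes (6.09%) had a lower difference, and for Pdgfa 1220 (10.9%). Another chain, Pdgfc, was 3.74-fold lower, at 7.51 in DSS and 9.41 in control. The receptor genes Pdgfra and Pdgfrb, which mark fibroblasts and pericytes, were under the medians of both arrays.

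In the related VEGF family the differences ran both ways. Vegfa, the main angiogenic factor, was 3.47-fold higher, at 9.68 in DSS and 7.89 in control. Pgf, placental growth factor, was 3.03-fold lower, at 6.86 in DSS and 8.46 in control. Nrp1, a co-receptor of VEGF and semaphorins, was 2.26-fold lower, and Nrp2 had a difference of -0.95. Over the joint PDGF and VEGF list, 10 genes were past the rule, with 1 higher, 3 lower, 6 between and a median of -0.68. Over all 17 measured genes of the list, without the signal rule, that median was -0.25.

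Hgf (probe set 10519857) encodes hepatocyte growth factor, a mitogen and motility factor for epithelium. It read 7.51 on the DSS array and 7.34 on the control array, a difference of 0.17, and 30.8% of genes past the rule had a higher one. Its receptor gene Met had the largest difference of the receptor genes in these lists, at 9.07-fold higher, with 7.93 in DSS and 4.75 in control. The control signal of Met was under the array's median, so this fold is not exact. HGF is made as an inactive precursor that proteases cleave. Plau, the urokinase gene, was 3.15-fold lower, at 8.99 in DSS and 10.64 in control. Spint1, an inhibitor of the activating proteases, read 9.81 in DSS and 9.59 in control. The activating proteases St14 and Hpn had differences of -0.36 and -0.35. The DSS signal of St14 was under the array's median, so its difference is not exact. Of the 8 genes of this list past the rule, 1 was higher, 1 was lower, 6 lay between and the median was -0.05.

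**Figure D2:**
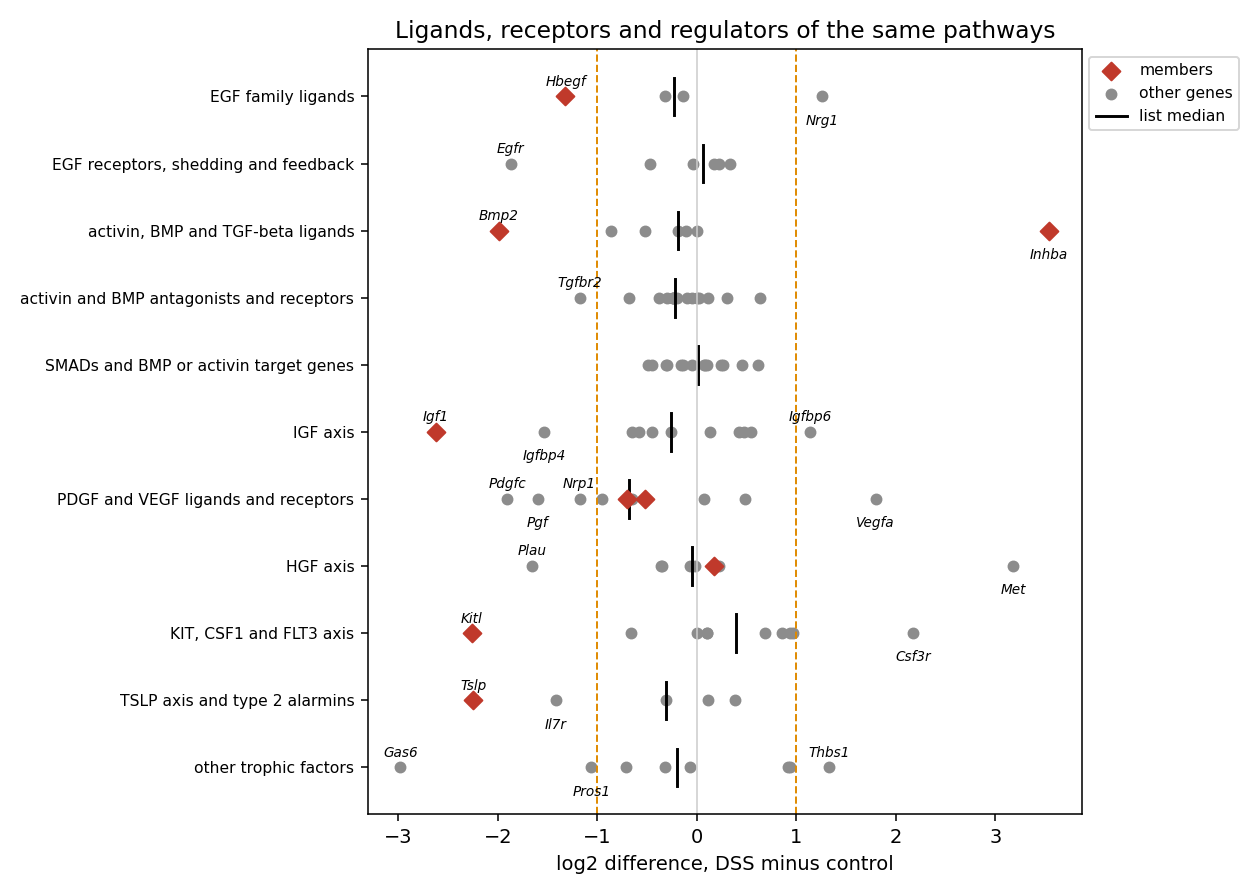
Log2 difference, DSS minus control, of each gene past the signal rule in 11 lists of ligands, receptors and regulators, with members as diamonds, other genes as circles, each list's median as a black bar and 2-fold as dashed lines. Inhba (3.54) and Met (3.18) lie furthest to the right, Gas6 (-2.98) and Igf1 (-2.62) furthest to the left.

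Beyond these axes, Gas6, a bridging ligand between apoptotic cells and the TAM receptors, was 7.88-fold lower, at 7.27 in DSS and 10.25 in control. Pros1, the other such ligand, was 2.08-fold lower, at 7.54 in DSS and 8.59 in control. Thbs1, which encodes thrombospondin 1, an activator of latent TGF-beta, was 2.52-fold higher, at 12.16 in DSS and 10.82 in control. Osm and Lif, cytokines of the IL-6 family, had differences of 0.91 and 0.94. Among the 19 measured genes of this list, 8 were past the rule, with 1 higher, 2 lower, 5 between and a median of -0.20. Fgf1, Fgf2, Fgf7, Fgf10, Bdnf and Gdnf were under the medians of both arrays.

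Without the members, the lists held 154 measured genes, of which 90 were past the rule. Among these 90, 6 (6.67%) were higher in DSS by 2-fold or more, 10 (11.1%) were lower by 2-fold or more and 74 differed by less. Their median difference was -0.07. The higher genes were Nrg1, Igfbp6, Vegfa, Met, Csf3r and Thbs1, and the lower ones were Egfr, Tgfbr2, Igfbp4, Pdgfc, Pgf, Nrp1, Plau, Il7r, Gas6 and Pros1. These shares stand beside 3.99% and 3.03% over all genes past the rule. The lists, like the members, were chosen with earlier results of these data known, so nothing is read from the shares. When each array was centred on its median, the split was 9 higher and 9 lower, beside 4.68% higher and 2.60% lower over all genes past the rule.

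**Figure D3:**
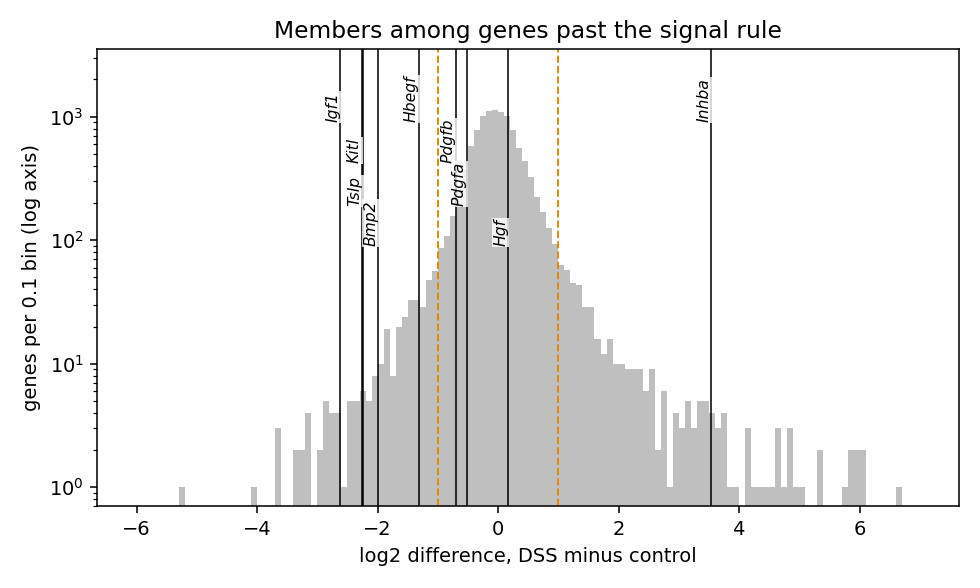
Number of genes per 0.1 of log2 difference (DSS minus control) on a log axis for the 11163 genes past the signal rule, with a black line at each measured member and dashed lines at 2-fold. Hgf, Pdgfa and Pdgfb lie within the dashed lines, Hbegf, Bmp2, Tslp, Kitl and Igf1 to the left of them and Inhba to the right.

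With 2 arrays, likeness between genes rests on 2 values. The genes nearest to a member in the plane of its DSS and control signals, by Euclidean distance without predicted genes, were Lrg1, Arg2 and Cd300lf for Inhba, at distances of 0.09, 0.18 and 0.22. Those nearest to Igf1 were Mtmr10, Ccl24 and Ednrb at 0.13, 0.24 and 0.29, and those nearest to Bmp2 were Mtss1, Adgrg6 and Hdac9 at 0.11, 0.12 and 0.12. Nearest to Hbegf were Postn, Hes1 and Ccl17 at 0.04, 0.06 and 0.07. No likeness is given for Kitl and Tslp, whose DSS signals cannot be told from background.

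The arrays also differed in the markers of cell types, whose part in the differences of the trophic factors was not tested. The antigens of the sort were above the medians of both arrays, with Ptprc (CD45), H2-Ab1 (IAb), Itgam (CD11b) and Adgre1 (F4/80) at 11.94, 12.13, 10.19 and 10.82 in DSS, against 11.54, 11.99, 9.59 and 11.65 in control. Itgae (CD103), the excluded antigen, was under both medians. All 12 neutrophil markers and all 8 measured monocyte markers were at least 2-fold higher in DSS, with median signals of 11.08 and 11.03 in DSS and 5.64 and 6.58 in control. Of the neutrophil list, 12 genes were at or above the array's median in DSS and 5 in control, so the folds of the others are not exact. Of 14 resident macrophage markers, 9 were at least 2-fold lower and 0 higher, with a median signal of 8.04 in DSS and 11.04 in control. The log2 of the summed signal of the resident list was 13.40 in DSS and 14.85 in control, and that of the neutrophil list 15.04 in DSS and 10.97 in control.

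None of the 10 fibroblast and muscle markers and none of the 12 epithelial markers reached 2-fold among those past the rule, and the log2 summed signals were 10.19 and 10.34 in DSS, against 10.55 and 10.02 in control. Epithelial, stromal and endothelial genes were in part above the medians on each array. Of all 19938 genes, 11163 were at or above the median on at least 1 array. Nothing is therefore read from the counts of markers at or above the medians given below. Of the 12 epithelial markers, 7 were at or above the median in DSS and 7 in control, among them Krt8 (8.05 in DSS and 7.97 in control) and Lgals4 (6.93 in DSS and 7.02 in control), while Epcam was under both. Of the 10 fibroblast and muscle markers, 6 were at or above the median in DSS and 6 in control. Dcn was the brightest, at 9.08 in DSS and 9.66 in control. The collagen genes Col1a1 and Col3a1 were above both medians, and Pdgfra and Pdgfrb were under both. Of the 7 endothelial markers, 2 were at or above the median on each array, Cdh5 (6.52 in DSS and 5.93 in control) and Vwf (6.27 in DSS and 6.36 in control), and Kdr and Tek were under both. Of the mast cell and basophil list, 1 of 10 genes (Kit) was above the median on each array, and Cpa3, Mcpt1 and Mcpt8 were under both. Of 12 T cell and innate lymphoid markers, 5 were at or above the median in DSS and 7 in control. Cd3d, Cd3e, Cd3g and Gata3 were under both medians, and 3 markers, Il7r, Cd2 and Cd28, were at least 2-fold lower in DSS, where Cd28 was under the median. The dendritic, B and plasma cell, and eosinophil lists had median differences of 0.10, -0.08 and -0.16, over 7, 4 and 3 genes past the rule. In the first, Siglech, a plasmacytoid dendritic cell gene, was 2.70-fold lower, and in the second Tnfrsf17, a plasma cell receptor gene, was 2.25-fold lower, with its DSS signal under the median. No other gene past the rule in these lists reached 2-fold. The highest signals in the dendritic and eosinophil lists were 8.34 and 6.81 in DSS, and 8.95 and 6.90 in control. In the B and plasma cell list, Jchain was bright on both arrays, at 10.52 in DSS and 10.79 in control.

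**Figure D4:**
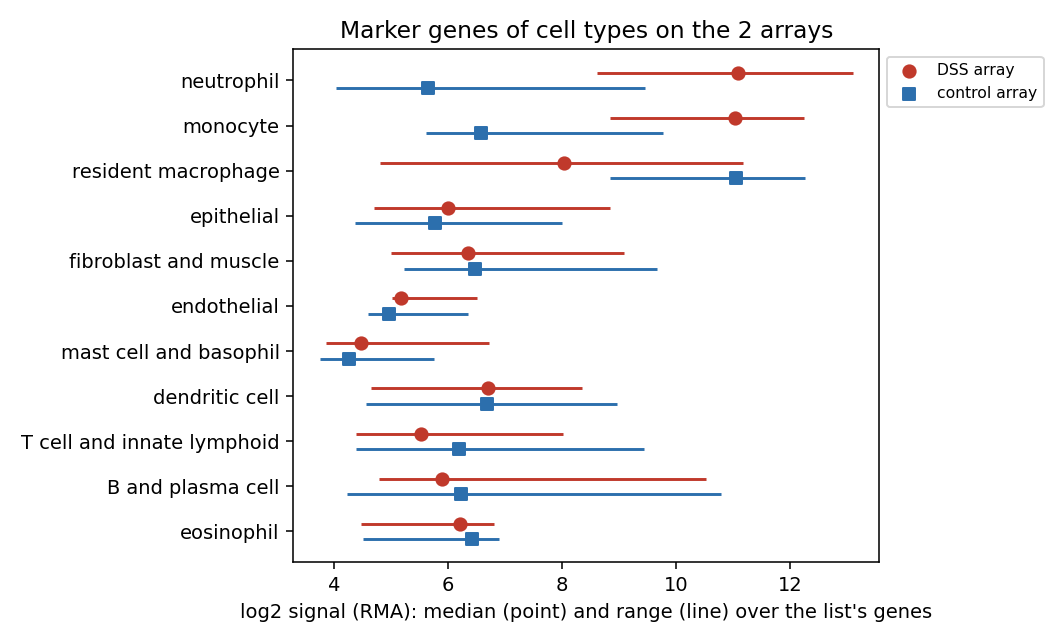
Median (point) and range (line) of log2 signal over the measured genes of each marker list, on the DSS array (circles, upper) and the control array (squares, lower). The neutrophil and monocyte medians are 11.08 and 11.03 in DSS and 5.64 and 6.58 in control, and the resident macrophage median is 8.04 in DSS and 11.04 in control.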

How the data were processed

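Total RNA (100 ng) from sorted macrophages was hybridised to 1 array per group, and the authors deposited a table of log2 signals for 35556 probe sets. Per the submitters' processing notes, RMA (robust multi-array average) was used, which combines probes into log2 values per probe set. Its version and settings are not stated, nor is a build. Differences of dim probe sets are shrunk by RMA, and with 1 array each, any scan batch and the treatment cannot be told apart. Values were used as deposited. Genes were named from the platform annotation, in which 21789 probe sets had 1 gene, 1621 had several (not used) and 12146 had none listed. All 9 measured members matched the RefSeq gene table by Entrez identifier. A gene took its probe set of the highest mean signal. Array medians rest on 28939 probe sets, leaving out identifiers below the lowest annotated one.

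The members, lists, motifs and the rule for named genes were chosen with earlier results of these data known. The rule took all members, each pathway-list gene past the signal rule and at least 2-fold apart, receptor or ligand partners, the 3 nearest genes to each member at 2-fold (not reported where a signal was under the median), the sort antigens and defining markers; other genes were named after their values were seen. Alternatives changed the scaling (median, loess with a span of 0.4), the probe set, the signal rule, the fold size (1.5 or 3) and a floor at the 25th percentile. Steps were tested on simulated data. Python 3.11.15, numpy 2.4.6, pandas 2.3.3, statsmodels 0.14.6 and matplotlib 3.10.9 were used.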

Additional observations from a re-analysis of the deposited data

How the results depend on the processing

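No alternative turned the direction of any of the 9 members. Over median centring, loess centring, both other choices of probe set and the floor, the difference of Inhba ranged from 3.54 to 3.62, that of Igf1 from -2.67 to -2.54, Kitl from -2.26 to -2.14, Tslp from -2.25 to -2.13, Bmp2 from -1.99 to -1.91, Hbegf from -1.34 to -1.24, Pdgfb from -0.70 to -0.62, Pdgfa from -0.52 to -0.44 and Hgf from 0.17 to 0.25. The choice of probe set could not move them, as each has 1. The floor left all 9 unchanged, and median centring shifts every gene by the same amount, so these settings check the members little. Requiring both arrays at or above their medians left 3 members at least 2-fold lower in place of 5, because Kitl and Tslp are dim in DSS. The other pathway genes numbered 14 higher and 17 lower at 1.5-fold, and 3 higher and 5 lower at 3-fold, against 6 and 10 at 2-fold. Over all genes past the rule, 9.85% were higher and 8.80% lower at 1.5-fold, and 1.64% higher and 1.06% lower at 3-fold. The median of the other pathway genes, -0.07, was 0.01 under median centring, where Kit, Flt3 and Lif passed 2-fold and Pros1 no longer did. Of the values for single lists and all genes, 262 stayed within the tolerance (0.28, or 1.5 times for a count) and 31 did not, mostly counts at another fold size. Without the signal rule, the median of the PDGF and VEGF list was -0.25 and that of the KIT, CSF1 and FLT3 list 0.11, against -0.68 and 0.40. No paired analysis was possible because each group has 1 array. The number of arrays limits the precision. Where both signals were under the array medians no fold is usable, and where 1 of them was, the fold is not exact.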

Other observations

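Some probe sets carried the identical value on both arrays. Of 28939 probe sets, 536 (1.85%) did so, and 64 of the 11163 genes past the signal rule (0.573%). In the pathway lists these were the 5 genes Csf1, Grem1, Il11, Nog and Smad9, of which Csf1 and Grem1 were at or above an array median. No member was among them. For these genes a difference of exactly 0 is the deposited value.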
